A study of Mus musculus with 32 samples.

Results

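The genes described here are the expressed solute carriers of mouse haematopoietic stem and progenitor cells (HSPCs), the membrane proteins that move amino acids, sugars, ions, metals, nucleosides and metabolites across the plasma membrane and the membranes of organelles. Members were chosen by level: a protein-coding gene whose symbol begins with Slc, a family number and the letter a, with a mean of at least 1 TPM, a length-corrected share of all transcripts, over the 16 libraries. Of 343 such genes 175 were members, 164 fell below the level, and Slc2a1, Slc7a11, Slc30a1 and Slc39a14 were left out by the rule. The tables hold 45706 gene identifiers in all, and 11263 of 21519 protein-coding genes reached the same level. Since TPM chose the members, their levels are given as a description, with no test.

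HSPCs were sorted from bone marrow as Lin- cKit+ Sca1+ cells carrying both CD45.1 and CD45.2. Per the labels that pair marks the wild-type donor cells, which had shared a marrow with other cells. Lethally irradiated C57BL/6J recipients (CD45.2) had received 800000 wild-type marrow cells together with 200000 CD45.1 marrow cells. In the experienced mice the CD45.1 cells were homozygous for an inducible human MLL-AF9 transgene, a leukaemia fusion gene, and for rtTA, the doxycycline-dependent activator. In the naive mice they were homozygous for rtTA only. All mice were given doxycycline 6 to 8 weeks after transplantation for 5 weeks and were then kept off it for 4 weeks, so that leukaemia arose and regressed in the experienced mice. PBS or LPS, a bacterial endotoxin, was injected 24 hours before the cells were taken, and each of the 4 groups has 4 replicates. The labels do not state age, sex or the promoter that drives rtTA. They call the replicates biological but do not say that each came from its own mouse. The p-values thus reflect only how far these samples spread, which may be technical.

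Solute carriers are secondary transporters and exchangers: most use the gradient of their substrate or of an ion rather than ATP. In blood progenitors they set the supply of amino acids for growth signalling, export lactate, feed iron and glycine to haem synthesis in mitochondria, and keep cell volume and pH. Several work in pairs, such as Slc7a5, which reaches the cell surface bound to the heavy chain Slc3a2.

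The libraries held between 7718836 and 22264649 counts, and 3 of them stood apart in ways that touch the results. Experienced LPS replicate 4 had the fewest counts, with 7.3% from mitochondrial genes, and experienced PBS replicate 4 had 5.94%, against 1.91% to 4.26% in the other 14 libraries. Experienced PBS replicates 3 and 4 had summed TPM of 12 erythroid markers of 540 and 1600, whereas replicates 1 and 2 had 72.4 and 71.2 and the naive PBS libraries 26.1 to 156. Car1 makes up most of this sum, at 348 TPM on average, followed by Ermap at 56.3 and Gata1 at 43.0 TPM. The globin genes and Alas2 on the list averaged 1.8 TPM or less. Granulocyte and monocyte sums of replicates 3 and 4 were 2370 and 3090, against 1290 and 1060 in replicates 1 and 2 and 632 to 1920 in naive PBS. Basophil and mast cell sums were 95.5 and 151 against 39.8 and 38.9. Megakaryocyte sums, 204 and 139 against 127 and 186, did not split this way. All 10 HSPC markers, Kit, Ly6a and Cd34 among them, exceeded 1 TPM on average. Of the B cell, T and NK cell, and endothelial and stromal lists, Pax5, Cd3e, Cd8a and Cdh5 averaged under 0.2 TPM, while Nkg7 averaged 150 TPM, Cd79b 17.2, Emcn 6.04 and Vpreb1 1.05 TPM.

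After LPS the marker lists of other lineages moved as well. All 8 tested basophil and mast cell markers rose in naive mice and 5 in experienced mice, and their sum was 34.3 to 73.8 TPM in naive PBS, 38.9 to 151 in experienced PBS, 243 to 556 in naive LPS and 197 to 352 in experienced LPS libraries. Of 11 tested erythroid markers 7 rose in naive mice (median log2 change 2.32), and in experienced mice the median was 0.17 with no edgeR call. Their sum was 412 to 1240 TPM in naive LPS and 243 to 1180 in experienced LPS libraries, while the globin genes Hba-a1, Hba-a2, Hbb-bs and Hbb-bt stayed at 6.11 TPM or less in every library. Of 10 HSPC markers 7 fell and 1 rose in naive mice, and 5 fell and 1 rose in experienced mice. The 1 that rose was Ly6a, the gene of the sort marker Sca1, by 1.72 (adjusted p = 0.00237) and 1.87 (adjusted p = 0.00207). Whether this changed which cells passed the sort gate was not tested. Of 6 tested megakaryocyte markers 2 rose in each kind of mice. Of 9 granulocyte and monocyte markers 0 were called, and of 8 macrophage markers 1 fell in experienced mice. Of 6 tested B cell markers 2 fell in naive mice, and of 4 tested endothelial and stromal markers 1 fell in each kind of mice. Of 2 tested T and NK cell markers 0 were called. Over all genes 9.81% rose and 11.9% fell in naive mice, and 4.52% rose and 8.26% fell in experienced mice. In such bulk samples fewer cells of a type and less RNA per cell cannot be told apart, and the part of these shifts in the carriers' changes was not tested.

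The 175 members summed to 4117 TPM on average, with a median of 10.5 TPM per gene. Slc25a5 at 486 TPM, an ADP/ATP exchanger of the inner mitochondrial membrane, and Slc25a3 at 322 TPM, the mitochondrial phosphate carrier, made up 19.6% of that sum. The 10 most abundant genes made up 34.5%, with the glutamine carrier Slc1a5 at 91.3 TPM next and the mitochondrial glutathione carrier Slc25a39 at 79.1 TPM. Mitochondrial carriers, 40 genes, held 39.1% of the sum, the 23 amino acid and peptide carriers 13.5% and the 22 metal and haem carriers 9.86%. RSEM divides reads among near-identical copies, and Slc25a5 and Slc25a4 belong to a family with close paralogs and processed pseudogenes, so their absolute levels are uncertain.

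**Figure D1:**
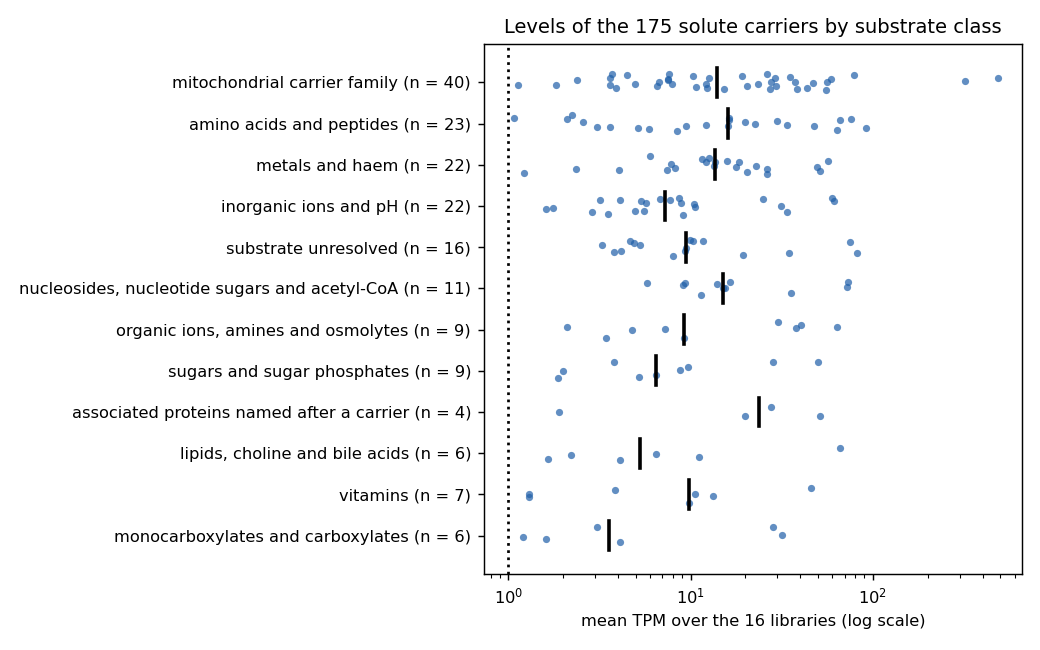
Mean TPM over 16 libraries (log scale) of each member, grouped by substrate class, with a black bar at the class median and a dotted line at the level of 1 TPM that chose the members. Slc25a5 and Slc25a3 are the pair at the far right, at 486 and 322 TPM.

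The summed level was 4079 ± 713 TPM in naive PBS, 4132 ± 177 in experienced PBS, 3948 ± 633 in naive LPS and 4309 ± 478 in experienced LPS libraries (SD, n = 4 each), and the ranges of the groups overlapped. Just inside the level lay Slc16a12 at 1.2, Slc25a47 at 1.13 and Slc15a3 at 1.07 TPM. Just outside lay the red-cell anion exchanger Slc4a1 at 0.878, the creatine carrier Slc6a8 at 0.865 and Slc2a10 at 0.853 TPM. In 166 members every group mean was at least 1 TPM, and 9 had a lower mean in at least 1 group. Another 8 genes reached 1 TPM in 1 group or more but not on average, and all 175 members passed the filter on low counts.

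LPS changed a minority of the carriers, in both directions. In naive mice 18 of 175 members rose and 24 fell, or 10.3% and 13.7%, beside 9.81% and 11.9% of all 15186 genes tested. In experienced mice 16 rose and 17 fell, or 9.14% and 9.71%, beside 4.52% and 8.26% of all genes. The members' median log2 change was -0.03 in naive and -0.02 in experienced mice, against 0.02 and -0.02 over all genes. The naive shares are thus near the background, and so is the share that fell in experienced mice. The share that rose in experienced mice was above it, and it is the least stable of the counts: it was 5 without experienced PBS replicate 1 or experienced LPS replicate 1, 6 without experienced PBS replicate 2, 9 and 8 without experienced LPS replicates 2 and 3, and 29 without experienced LPS replicate 4. Rises over all genes moved the same way, so this is not particular to the carriers. They went from 686 to 302, 328, 321, 361, 393 and 1456 in the same order. The count that fell there was 6 without experienced PBS replicate 1, 9 without experienced PBS replicate 2, and 10 without experienced LPS replicate 1, 2 or 3, and in naive mice the count that rose was 11 without naive PBS library 4 or naive LPS library 3. Falls over all genes in experienced mice went from 1254 to 763, 787, 828, 869 and 712 in the same order. Naive rises over all genes went from 1490 to 902 and 1222. On log2(TPM + 1) with limma 5 rose and 20 fell in naive mice and 6 rose and 11 fell in experienced mice. With upper-quartile scaling the share of rises among all calls over all genes went from 45.2% to 35% in naive mice, while the members stood at 16 higher and 26 lower.

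Both responses were measured on separate libraries. In all, 53 members were called in at least 1 of them and 22 in both, always in the same direction. The 10 shared rises were 55.6% of those in naive and 62.5% of those in experienced mice, beside 29.9% and 65.0% over all genes. The 12 shared falls were 50% and 70.6%, beside 52.2% and 75.1% over all genes. Across the 175 members the log2 changes in the naive and experienced mice had a Pearson r of 0.72, beside 0.70 across all genes, which are not independent replicates.

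**Figure D2:**
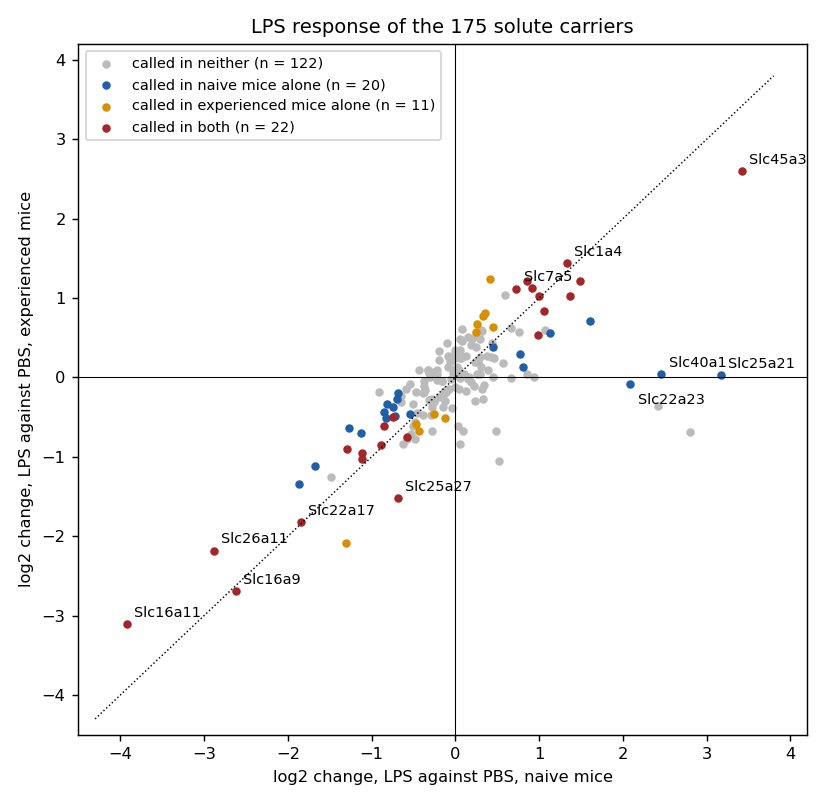
Log2 change after LPS in naive mice (x axis) and in experienced mice (y axis) for the 175 members, coloured by whether they were called in neither, 1 or both comparisons, with a dotted line of equal change. Most called members lie near the line, while Slc25a21, Slc40a1 and Slc22a23 lie to the right at changes of 3.17, 2.46 and 2.09 in naive mice and near 0 in experienced mice.

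**Figure D3:**
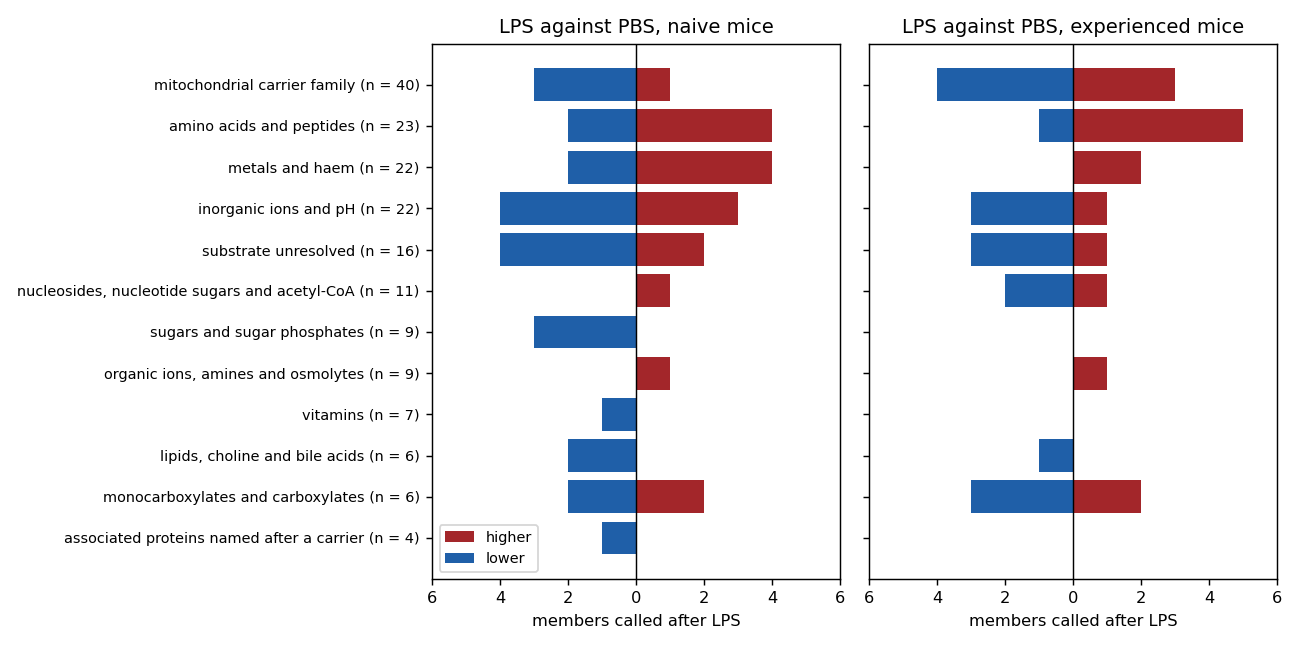
Number of members that rose (red, right of 0) or fell (blue, left of 0) after LPS at an adjusted p under 0.05, by substrate class, in naive and experienced mice. Sugar carriers have 3 falls in naive mice and no calls in experienced mice, and amino acid carriers have the most rises in experienced mice, 5 of 23.

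Among amino acid carriers Slc7a5, which imports leucine and other large neutral amino acids, rose in both kinds of mice, as did Slc7a8, a related light chain that also pairs with Slc3a2, and Slc1a4, a carrier of serine and alanine. Slc43a2, which moves the same large neutral amino acids without a heavy chain, fell in both. Of the 23 members of the class 4 rose and 2 fell in naive mice (17.4% and 8.7%), beside 9.81% and 11.9% of all genes. In experienced mice 5 rose and 1 fell (21.7% and 4.35%), beside 4.52% and 8.26% of all genes. The class medians were -0.03 and -0.15.

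Slc7a5, on chromosome 8 from 121881150 to 121907694 of GRCm38, had 127, 122, 143 and 95.7 CPM (counts scaled to library size, not to gene length) in the naive PBS libraries and 185, 175, 287 and 160 in the naive LPS libraries. In experienced mice it had 103, 104, 110 and 164 CPM after PBS and 311, 259, 282 and 189 after LPS. Neither pair of groups overlapped, and experienced PBS replicate 4 was the highest of the 8 PBS libraries. The rise was 1.66-fold in naive mice (log2 0.73, SE 0.21, adjusted p = 0.0226) and 2.17-fold in experienced mice (log2 1.12, SE 0.21, adjusted p = 0.00294). The naive call was lost without naive PBS library 2 or 4 or naive LPS library 3 (adjusted p = 0.0561, 0.0706 and 0.0863). It was also lost with limma on log2(TPM + 1), while the call in experienced mice held in all 23 other settings.

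Slc3a2, the heavy chain on chromosome 19 from 8706882 to 8723369, had 107 to 119 CPM in the naive PBS and 135 to 170 in the naive LPS libraries, which did not overlap. The experienced PBS libraries had 107, 109, 96.1 and 123 CPM and the experienced LPS libraries 201, 181, 184 and 107, where replicate 4 lay among the PBS values. It rose 1.54-fold in experienced mice (adjusted p = 0.0169, and 0.0526 to 0.068 without experienced PBS replicate 1 or experienced LPS replicate 1 or 2). The 1.37-fold difference in naive mice missed the threshold (adjusted p = 0.0525).

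Slc7a8 had 35.5 to 41.2 CPM in naive PBS and 60.3 to 104 in naive LPS libraries, and 25 to 41.5 and 60.7 to 77.2 in experienced mice. Its groups did not overlap, and it rose 1.9-fold (adjusted p = 0.00259) and 2.19-fold (adjusted p = 0.000925). The naive call of Slc7a8 was lost with limma on log2(TPM + 1). Slc1a4 was far scarcer, with 2.17 to 5.57 CPM in naive PBS, 6.2 to 14 in naive LPS, 2.56 to 6.69 in experienced PBS and 8.59 to 13.4 in experienced LPS libraries. Its rises were 2.52-fold (adjusted p = 0.0161) and 2.71-fold (adjusted p = 0.016). The first was lost without naive PBS library 4 or naive LPS library 3 (adjusted p = 0.0504 and 0.0674), the second without experienced PBS replicate 1 or 2 or experienced LPS replicate 1 (adjusted p = 0.0524 to 0.061).

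Slc43a2 had 75.1, 78.6, 91.9 and 76 CPM in naive PBS and 34.6, 24.1, 39.1 and 32.9 in naive LPS libraries. Experienced mice had 98.4, 85, 58.3 and 46.2 CPM after PBS and 43.9, 41.6, 46 and 22.5 after LPS. Experienced PBS replicates 3 and 4 were the lowest of the 8 PBS libraries. The fall was -1.29 on the log2 scale in naive mice (SE 0.24, adjusted p = 0.00158) and -0.90 in experienced mice (SE 0.24, adjusted p = 0.0212, and 0.0887 and 0.0685 without experienced PBS replicates 1 and 2).

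The arginine and lysine carrier Slc7a1 rose 1.59-fold in experienced mice (adjusted p = 0.0184), a call lost without experienced PBS replicate 1 or 2 or experienced LPS replicate 1, 2 or 3 (adjusted p = 0.0535 to 0.0682), and stood at 1.19-fold in naive mice (adjusted p = 0.315). The aromatic amino acid carrier Slc16a10 rose 1.7-fold in naive mice (adjusted p = 0.0459), and Slc36a4 fell there by 0.74 on the log2 scale (adjusted p = 0.0178). The glutamine carriers Slc1a5, Slc38a1 and Slc38a2 had log2 changes of -0.04, -0.03 and -0.28 in naive and 0.27, 0.06 and -0.27 in experienced mice, none past the threshold. Slc1a5 had 220, 218, 209 and 62.6 CPM in the experienced LPS libraries, so that replicate 4 lay far below the others. Slc15a4, a histidine and peptide carrier of endolysosomes, had 21 to 38.5 CPM after LPS and 26.1 to 41.2 after PBS over both kinds of mice and was not called.

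Among 6 monocarboxylate carriers the lactate and pyruvate carrier Slc16a1 rose and its relative Slc16a7 fell. Slc16a1, on chromosome 3 from 104638668 to 104658462, had 79.5, 76.4, 72.2 and 66.1 CPM in naive PBS and 120, 149, 189 and 131 in naive LPS libraries. Its experienced values were 54.9, 61.2, 91.6 and 119 CPM after PBS and 187, 184, 191 and 106 after LPS. The naive groups did not overlap, whereas replicate 4 after LPS lay below replicate 4 after PBS in experienced mice. The rises were 2.0-fold (adjusted p = 0.00716) and 2.05-fold (adjusted p = 0.00902), and both calls held in all 23 settings.

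Slc16a6 rose 1.99-fold in naive mice (adjusted p = 0.000467), from 37.9 to 47.2 CPM up to 78.7 to 95.7. In experienced mice it rose 1.45-fold (adjusted p = 0.0339, and 0.0715 to 0.121 without experienced PBS replicate 1 or 2 or experienced LPS replicate 1 or 3). Both Slc16a6 calls were lost with limma on log2(TPM + 1). Slc16a7 went from 9.51 to 11.6 CPM down to 3.62 to 6.86 in naive mice (log2 -1.11, adjusted p = 0.00753) and fell by 0.95 in experienced mice (adjusted p = 0.0266, and 0.0587 to 0.0862 without experienced PBS replicate 1, 2 or 3 or experienced LPS replicate 2). The lactate exporter Slc16a3 was not called, at log2 0.00 and 0.25.

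Slc16a9, on chromosome 10 from 70245100 to 70285968, showed one of the largest falls of all members. It had 8.31, 7.3, 5.47 and 15.6 CPM in naive PBS and 1.73, 1.29, 1.32 and 1.58 in naive LPS libraries, and 7.64, 8.64, 3 and 7.35 against 1.12, 0.791, 1.56 and 0.412 in experienced mice. No LPS library reached any PBS library. The log2 changes were -2.62 (SE 0.42, adjusted p = 0.00051) and -2.69 (SE 0.43, adjusted p = 0.000742). Slc16a12, known as a creatine carrier, fell in experienced mice by 2.08 (adjusted p = 0.0364), but 1 LPS library was at 0 and the call ended on leaving out any of 7 libraries (adjusted p = 0.0508 to 0.121): naive PBS replicate 1 or 2, experienced PBS replicate 1, 2 or 3, or experienced LPS replicate 1 or 3.

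As classed here, 3 sugar carriers were called with edgeR, all of them falls in naive mice. Of 9 members 3 fell (33.3%) and 0 rose in naive mice, beside 11.9% and 9.81% of all genes. In experienced mice edgeR called 0, beside 8.26% and 4.52% of all genes, and 2 members had an unadjusted p under 0.05. Slc2a3, a high-affinity glucose carrier on chromosome 6 from 122727809 to 122801640, had 108, 107, 95.9 and 103 CPM in naive PBS and 69.4, 50.7, 61.5 and 75.2 in naive LPS libraries. After PBS in experienced mice it had 108 and 93.7 CPM in replicates 1 and 2 but 69.1 and 71.3 in replicates 3 and 4, against an experienced LPS range of 69.3 to 78.1. The naive fall was -0.69 on the log2 scale (SE 0.15, adjusted p = 0.00479) and held in all 23 settings, and the difference in experienced mice was -0.20 (adjusted p = 0.409). The interaction, which subtracts the naive LPS change from the experienced one, was 0.48 for Slc2a3 (unadjusted p = 0.0369, adjusted p = 0.884). The urate and hexose carrier Slc2a9 fell by 1.13 in naive mice (adjusted p = 0.00808), and Slc50a1 by 0.54 (adjusted p = 0.0178, and 0.058 and 0.0563 without naive PBS replicate 4 and naive LPS replicate 2).

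Nucleoside and organic ion carriers, 11 and 9 members, gave 1 rise each in both kinds of mice. These are 9.09% and 11.1%, beside 9.81% of all genes in naive and 4.52% in experienced mice. Slc28a2, which concentrates purine nucleosides and uridine using sodium, had 58.8, 59.5, 59.1 and 39.4 CPM in naive PBS and 123, 85.5, 78.8 and 104 in naive LPS libraries. In experienced mice it had 64, 50.9, 60.6 and 32.7 CPM after PBS and 155, 101, 110 and 117 after LPS. Neither pair of groups overlapped, and the rises were 1.81-fold (adjusted p = 0.01) and 2.32-fold (adjusted p = 0.00162). The naive call of Slc28a2 was lost with limma on log2(TPM + 1). The equilibrative carrier Slc29a1, at 71.8 TPM, was not called (log2 0.10 and 0.05), nor was Slc43a3 at 73.1 TPM (0.26 and 0.05). In experienced mice Slc29a3 and Slc35a5 fell by 0.59 and 0.67 (adjusted p = 0.0371 and 0.023). The Slc29a3 call was lost without any of 9 libraries (adjusted p = 0.0502 to 0.112): naive PBS replicates 1 to 3, experienced PBS replicates 1, 2 and 4, and experienced LPS replicates 1 to 3. The Slc35a5 call was lost without experienced PBS replicate 4 or experienced LPS replicate 1, 2 or 3 (adjusted p = 0.0515 to 0.0812).

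The urea carrier Slc14a1 had 59.8 to 76.1 CPM in naive PBS and 107 to 161 in naive LPS libraries, a rise of 2.09-fold (adjusted p = 0.0114). The experienced PBS libraries had 44.4, 58.1, 97.4 and 137 CPM and the experienced LPS libraries 140, 131, 133 and 200, so that replicate 4 after PBS reached the LPS range. That 1.8-fold rise had an adjusted p of 0.0493 and was lost without 13 of the 16 libraries, all but naive LPS replicates 2 and 4 and experienced PBS replicate 4 (adjusted p = 0.0524 to 0.146). With limma on log2(TPM + 1) both Slc14a1 calls were lost, and with a block for replicate number the one in experienced mice. The organic cation carrier Slc22a3, the most abundant of its class at 63.5 TPM, and the vesicular monoamine carrier Slc18a2 at 37.8 TPM were not called. Slc6a4, the serotonin carrier, was below the level and no member.

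Mitochondrial carriers were the largest class. Of 40 members 1 rose and 3 fell in naive mice, or 2.5% and 7.5% beside 9.81% and 11.9% of all genes, and 3 rose and 4 fell in experienced mice, or 7.5% and 10% beside 4.52% and 8.26%. Slc25a5 had 389, 359, 363 and 354 CPM in naive PBS and 406, 337, 632 and 510 in naive LPS libraries, which overlapped. Experienced mice had 309, 326, 392 and 333 CPM after PBS and 710, 682, 678 and 317 after LPS, so replicate 4 stood at less than the 3 others and within the PBS range. Its rise of 1.76-fold there had an adjusted p of 0.0263 and was lost without experienced PBS replicate 1 or 2 or experienced LPS replicate 1, 2 or 3 (adjusted p = 0.0731 to 0.0843). Without experienced LPS replicate 4 the log2 change was 1.05, against 0.81 with it.

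Slc25a27, a member of the uncoupling protein branch, had 9.5, 9.17, 10.4 and 8.69 CPM in naive PBS, 12.4, 12.6, 13.8 and 8.09 in experienced PBS, 5.4, 7.75, 4.47 and 5.96 in naive LPS and 3.81, 4.52, 3.96 and 4.12 in experienced LPS libraries. The LPS libraries were all below the PBS libraries in both kinds of mice. The falls were -1.52 in experienced mice (SE 0.22, adjusted p = 0.000414) and -0.69 in naive mice (adjusted p = 0.0316). The naive call was lost without any naive PBS replicate or without naive LPS replicate 1 or 3 (adjusted p = 0.0533 to 0.0902). The interaction of -0.83 had an unadjusted p of 0.0149 and an adjusted p of 0.884. Slc25a45 fell in naive mice by 0.83 (adjusted p = 0.00411), and Slc25a53 fell by 0.89 and 0.85 (adjusted p = 0.00756 and 0.015). The latter call was lost without experienced PBS replicate 1 or experienced LPS replicate 1, 2 or 3 (adjusted p = 0.0508 to 0.0715).

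The pyrimidine nucleotide carriers Slc25a33 and Slc25a36 went opposite ways in experienced mice, up 2.36-fold (adjusted p = 0.0349) and down by 0.46 on the log2 scale (adjusted p = 0.0489). The Slc25a33 call was lost on leaving out any 1 experienced PBS library or experienced LPS replicate 1, 2 or 3 (adjusted p = 0.0554 to 0.1). It was also lost with limma on log2(TPM + 1), with a block for replicate number, and without both experienced PBS replicates 3 and 4.

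Of 22 iron, haem and other metal carriers 4 rose and 2 fell in naive mice (18.2% and 9.09%), beside 9.81% and 11.9% of all genes. In experienced mice 2 rose (9.09%) and 0 fell by edgeR, beside 4.52% and 8.26%, and 5 had an unadjusted p under 0.05. Slc40a1, ferroportin, the iron exporter on chromosome 1 from 45908068 to 45926523, had 5.61, 7.91, 6.87 and 2.52 CPM in naive PBS and 28.8, 12.9, 47.3 and 37 in naive LPS libraries. Its experienced values were 3.19, 2.29, 23.9 and 39.7 CPM after PBS and 14.3, 7.57, 15 and 34 after LPS, and experienced PBS replicate 4 exceeded all 4 of the LPS libraries. The naive rise was 5.5-fold (log2 2.46, SE 0.73, adjusted p = 0.025, and 0.0519 to 0.0745 without naive PBS library 1, 3 or 4 or naive LPS library 3). In experienced mice the log2 difference was 0.04 (SE 0.70, adjusted p = 0.979).

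Slc11a2, DMT1, which carries ferrous iron out of endosomes, had 18.6 to 23.1 CPM in naive PBS and 62.4, 32.5, 88 and 70.6 in naive LPS libraries. In experienced mice it had 18.3, 15.5, 31.3 and 62.8 CPM after PBS and 42.4 to 59.4 after LPS. The naive rise was 3.06-fold (adjusted p = 0.00499) and held in all 23 settings. The 1.63-fold difference in experienced mice had an adjusted p of 0.202, and of 0.0084 without experienced PBS replicate 4 (log2 1.28).

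Slc25a21, a mitochondrial carrier of oxodicarboxylates, and Slc22a23, whose substrate is not settled, had the same shape. Slc25a21 had 1.86, 2.95, 2.45 and 0.479 CPM in naive PBS, 16.3, 7.75, 27.8 and 18.2 in naive LPS, 0.784, 0.729, 9.54 and 21.4 in experienced PBS and 7.27, 3.16, 10.1 and 12.1 in experienced LPS libraries. Its naive rise was 9.01-fold (SE 0.86 on the log2 scale, adjusted p = 0.0158) and held in all 23 settings. Slc22a23 rose 4.25-fold in naive mice (adjusted p = 0.0167, and 0.054 and 0.0508 without naive PBS replicate 4 and naive LPS replicate 3) and had 11.3 and 28.5 CPM in experienced PBS replicates 3 and 4 against 5.02 and 3.23 in replicates 1 and 2.

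The glutamine carrier Slc38a5 and the sulfate carrier Slc26a1, named here after their values were seen, were not called but had the same split. Slc38a5 had 1.73 and 1.87 CPM in experienced PBS replicates 1 and 2 and 10 and 60.6 in replicates 3 and 4, and Slc26a1 had 0.471, 0.26, 5.27 and 26.3. These libraries are the ones with an erythroid marker sum of 72.4, 71.2, 540 and 1600 TPM. Their granulocyte and monocyte sums were 1290, 1060, 2370 and 3090 TPM. Without experienced PBS replicates 3 and 4, a choice made after seeing the data, the LPS difference in experienced mice was 2.67 for Slc40a1 (adjusted p = 0.0126), 1.62 for Slc11a2 (0.00295), 3.42 for Slc25a21 (0.00665), 2.98 for Slc38a5 (0.032), 3.72 for Slc26a1 (0.00857) and 1.44 for Slc22a23 (0.0792), on the log2 scale.

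**Figure D4:**
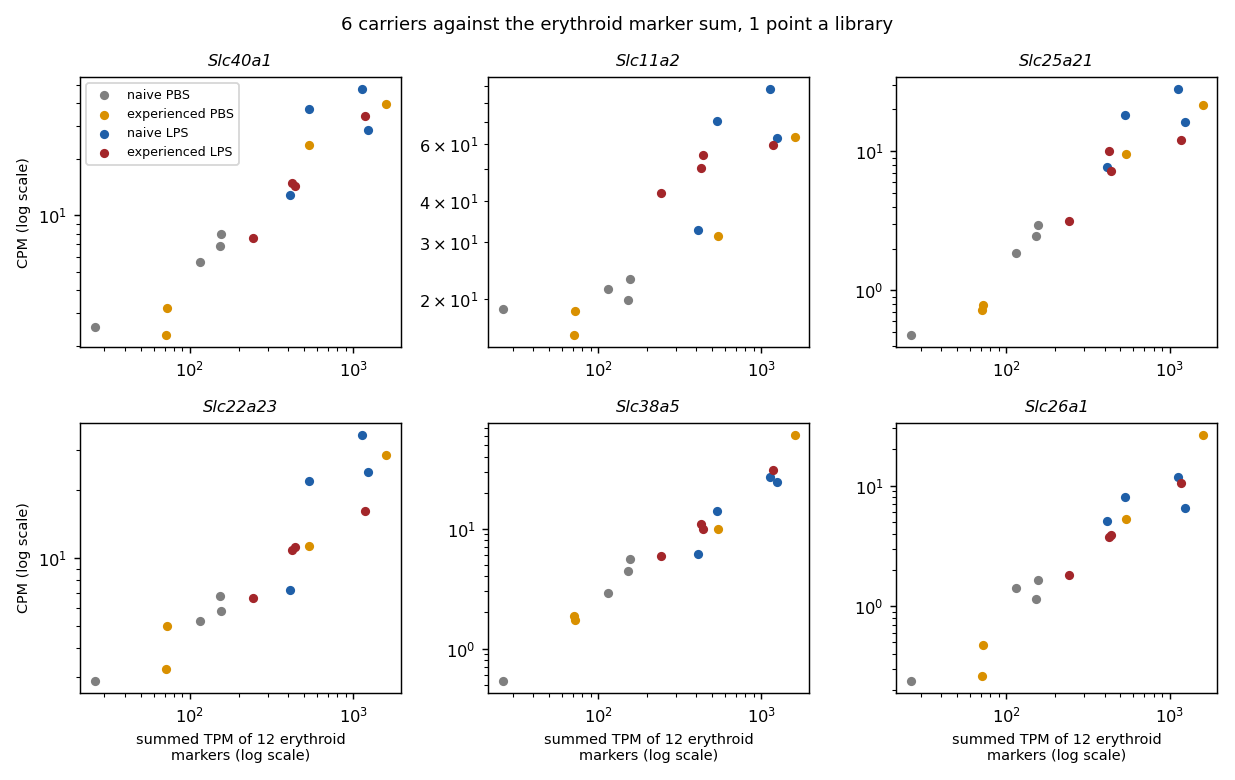
CPM of 6 carriers (y axis, log scale) against the summed TPM of 12 erythroid markers (x axis, log scale), 1 point for each of the 16 libraries, coloured by group. Car1, at 348 TPM on average, makes up most of the marker sum. Experienced PBS replicates 3 and 4, at sums of 540 and 1600 TPM, lie within and above the range of the LPS libraries on the x axis (243 to 1240 TPM), and replicates 1 and 2 lie at the lower left with naive PBS.

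Other iron and haem carriers gave fewer calls. Slc25a37, mitoferrin 1, which brings iron into mitochondria, fell by 0.51 in experienced mice (adjusted p = 0.0161, and 0.055 and 0.0527 without experienced LPS replicates 1 and 2). That call was also lost without the filter on low counts, with limma on log2(TPM + 1), and without both experienced PBS replicates 3 and 4. Slc25a37 stood at -0.12 in naive mice. Its relative Slc25a28 was at 0.03 in both, the glycine carrier Slc25a38 at 0.67 and -0.01, and the haem carrier Slc48a1 at -0.39 and -0.19, none past the threshold. Slc11a1, the macrophage metal pump, was below the level. Of 15 genes that work with these carriers 5 rose and 1 fell in naive mice, and 1 rose in experienced mice. The shares of all genes were 9.81% and 11.9% in naive mice, and 4.52% rose in experienced mice. Among them the transferrin receptor Tfrc rose by 2.28 (adjusted p = 9.34e-05) and 1.67 (adjusted p = 0.00139), and the endosomal reductase Steap3 by 1.3 in naive mice (adjusted p = 0.0484).

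Slc41a3, a magnesium carrier, rose in both, by 1.49 (adjusted p = 0.00655) and 1.22 (adjusted p = 0.0293, and 0.0564 to 0.0927 without experienced PBS replicate 1, 2 or 3 or experienced LPS replicate 1 or 3). Of the zinc carriers, Slc39a8 rose in naive mice by 0.81 (adjusted p = 0.0257, and 0.0532 to 0.0819 without naive PBS library 1, 2 or 3 or naive LPS library 1). Slc30a4 fell there by 0.82 (adjusted p = 0.0217, and 0.0531 to 0.0808 without naive PBS library 4 or naive LPS library 3 or 4), Slc39a11 by 0.70 (adjusted p = 0.0298), and Slc39a7 rose in experienced mice by 0.77 (adjusted p = 0.0271, and 0.0508 to 0.0872 without experienced PBS replicate 1, 2 or 3 or experienced LPS replicate 1, 2 or 3).

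Inorganic ion carriers included one of the largest falls, and potassium-chloride cotransporters, which lower cell volume, that were called in opposite directions. Slc26a11, a sulfate and chloride carrier on chromosome 11 from 119355557 to 119381079, had 13.4, 17.5, 16.8 and 15.5 CPM in naive PBS and 2.46, 1.68, 1.88 and 2.46 in naive LPS libraries. The experienced PBS libraries had 22, 14.9, 9.27 and 6.32 CPM and the experienced LPS libraries 2.29, 2.26, 2.73 and 4.54. The groups did not overlap, and the falls were -2.88 (SE 0.35, adjusted p = 5.71e-05) and -2.18 (SE 0.34, adjusted p = 0.000685), both called in all 23 settings.

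Slc12a7, a potassium-chloride cotransporter, fell by 0.75 in naive mice (adjusted p = 0.00347) and by 0.50 in experienced mice, where the adjusted p was 0.0465 and leaving out any library but experienced PBS replicate 3 or 4 ended the call (adjusted p = 0.0521 to 0.189). Its relative Slc12a4 rose 2.19-fold in naive mice (adjusted p = 0.0205, and 0.0574 to 0.0632 without naive PBS library 2 or 4 or naive LPS library 3). The calcium exchanger Slc24a3 rose 2.58-fold (adjusted p = 0.00225) and 2.04-fold (adjusted p = 0.0181, and 0.0522 to 0.0681 without experienced PBS replicate 1 or 2 or experienced LPS replicate 1). The phosphate carrier Slc20a1 rose 1.37-fold in naive mice (adjusted p = 0.0377). That call ended on leaving out any naive PBS library, naive LPS replicate 3 or 4, or experienced LPS replicate 2 (adjusted p = 0.0506 to 0.103). It also ended with upper-quartile scaling, without the filter on low counts, with limma on log2(TPM + 1) and with a block for replicate number. Slc20a2 was at log2 0.04 and 0.29.

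Of 6 lipid carriers 2 fell in naive and 1 in experienced mice, and of 7 vitamin carriers 1 fell in naive mice. Over all genes 11.9% fell in naive and 8.26% in experienced mice. In these classes 0 members rose, beside 9.81% and 4.52% of all genes. Slc27a1, a fatty acid carrier, went from 29.4 to 37.8 CPM down to 12.2 to 19.1 in naive mice (log2 -1.12, adjusted p = 0.00651) and fell by 1.03 in experienced mice (adjusted p = 0.0153, and 0.0666 and 0.0593 without experienced PBS replicates 1 and 2). Slc27a6 fell by 1.87 in naive mice (adjusted p = 0.00703) and was at -1.34 in experienced mice (adjusted p = 0.0501). The vitamin C carrier Slc23a2 had 53.3 to 65 CPM in naive PBS and 24.9 to 35.1 in naive LPS libraries, a fall of -0.85 (adjusted p = 0.00145), and was at -0.44 in experienced mice (adjusted p = 0.0765). The folate carrier Slc19a1 and the choline carrier Slc44a2, the most abundant of these classes at 46.1 and 66.0 TPM, were not called.

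The extremes of the whole family were members whose substrate was classed here as unresolved. Slc45a3, on chromosome 1 from 131962967 to 131982969, had 6.5, 5.43, 7.59 and 1.02 CPM in naive PBS and 56.4, 8.52, 69.9 and 86.1 in naive LPS libraries. Experienced mice had 3.09, 3.64, 7.27 and 11.8 CPM after PBS and 42, 32.9, 53.4 and 24.7 after LPS. The groups did not overlap, although naive LPS replicate 2 lay just above naive PBS. The rises were 10.7-fold (log2 3.42, SE 0.63, adjusted p = 0.00151) and 6.06-fold (log2 2.60, SE 0.62, adjusted p = 0.0116), the largest of all members in each comparison, and both held in all 23 settings.

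Slc16a11 and Slc16a13, neighbours on chromosome 11 at 70212752 to 70216417 and 70216789 to 70221064 on opposite strands, fell together. Slc16a11 had 10.3, 10.2, 11.6 and 11.9 CPM in naive PBS and 0.576, 0.387, 0.611 and 1.32 in naive LPS libraries, a change of -3.92 (SE 0.80, adjusted p = 0.00306) that was the largest fall of all members. Its experienced values were 38.3, 19.6, 4.67 and 3.63 CPM after PBS and 1.37, 2.37, 3.58 and 0 after LPS, a change of -3.11 (SE 0.74, adjusted p = 0.0118, and 0.059 without experienced PBS replicate 1). Slc16a13 fell by 0.85 (adjusted p = 0.00385) and 0.61 (adjusted p = 0.0343). The latter call was lost without naive PBS replicate 1, experienced PBS replicate 1 or 2 or experienced LPS replicate 1, 2 or 3 (adjusted p = 0.0585 to 0.123).

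Slc22a17, described as a receptor for the siderophore-binding protein lipocalin 2, had 15.6, 12.4, 12.6 and 10.4 CPM in naive PBS and 4.03, 1.42, 4.05 and 4.56 in naive LPS libraries. In experienced mice it had 16, 13.1, 5.67 and 5.3 CPM after PBS and 3.1, 3.62, 3.63 and 0.825 after LPS. The groups did not overlap, and the falls were -1.84 (SE 0.44, adjusted p = 0.00773) and -1.82 (SE 0.44, adjusted p = 0.0132, and 0.0561 without experienced PBS replicate 1). Of 4 members that are not carriers but proteins named after one, the scaffold Slc9a3r2 fell in naive mice by 1.68 (adjusted p = 0.0145), and its relative Slc9a3r1 was at -0.16 and -0.05. Slc7a6os overlaps the carrier Slc7a6, the labels do not state a strand setting for the counting, and neither was called.

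**Figure D5:**
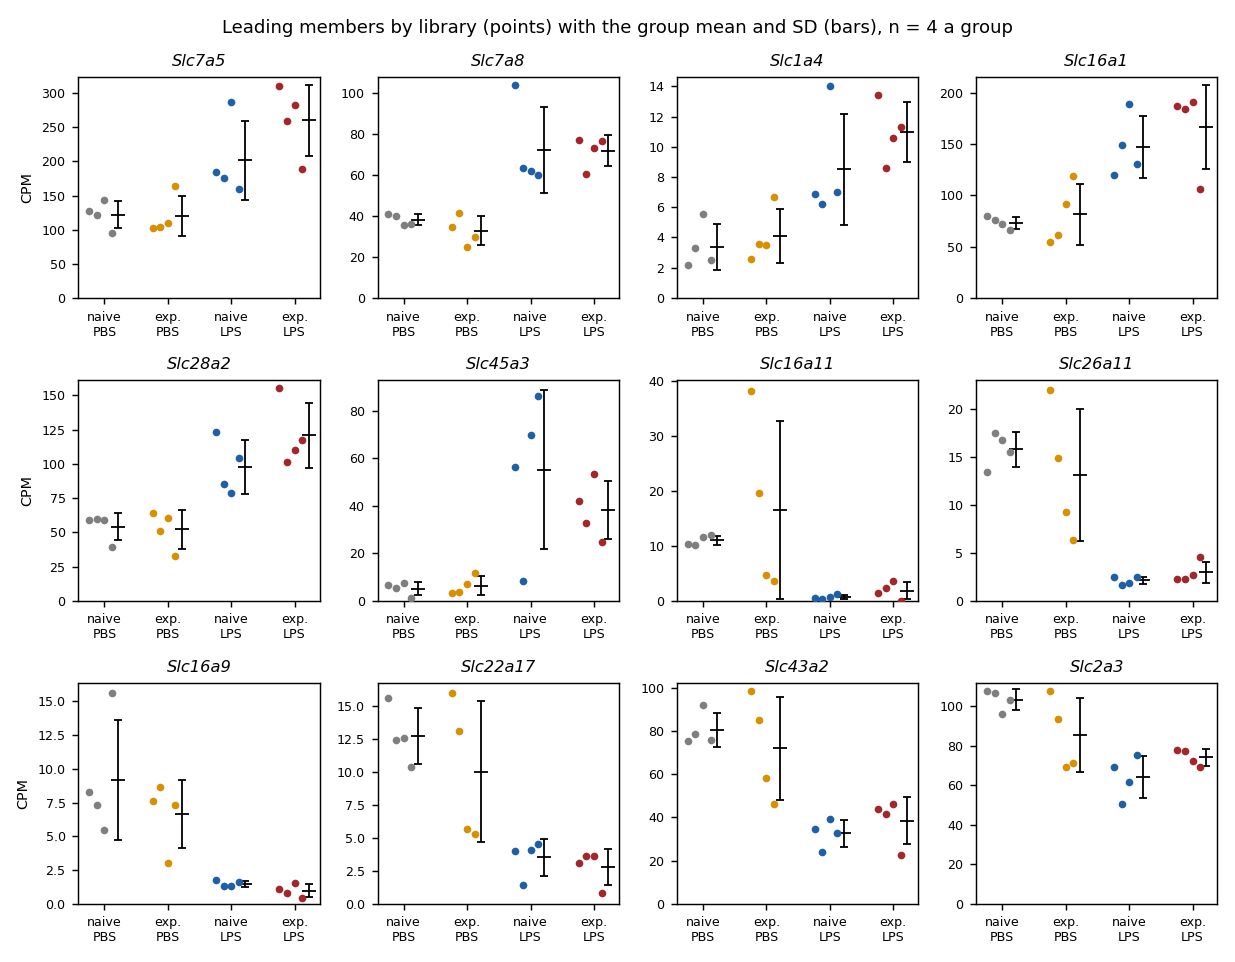
CPM of 12 members in each library (points, 4 a group) with the group mean and SD (bars). Exp. is experienced, and every vertical axis starts at 0. The LPS groups lie above or below their PBS groups, except for Slc16a1 and Slc2a3 in experienced mice, where the groups overlap. Experienced PBS replicates 3 and 4 lie toward the LPS side for genes such as Slc16a11, Slc26a11, Slc22a17, Slc43a2 and Slc2a3.

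Between experienced and naive mice no carrier passed the threshold. With edgeR 0 of 175 members were called higher or lower after PBS, after LPS, averaged over both, or in the interaction, as for all genes, where the share called was 0% in each. At an unadjusted p under 0.05 there were 9 of 175 members after PBS, 2 after LPS, 2 in the average and 11 in the interaction. Over all 15186 genes there were 451, 491, 294 and 695 (2.97%, 3.23%, 1.94% and 4.58%). DESeq2 and limma on log2(TPM + 1) also called 0 members in each. The lowest unadjusted p in the interaction was that of Slc38a9, the lysosomal arginine sensor of the mTORC1 pathway, named here after its values were seen. It had 25.3 to 35.2 CPM in naive PBS, 34 to 66.7 in experienced PBS, 26.2 to 53 in naive LPS and 25.1 to 37.5 in experienced LPS libraries, and its interaction was -1.15 (unadjusted p = 0.00247, adjusted p = 0.884).

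The 4 experienced PBS libraries did not behave as 1 group. For the 42 members called after LPS in naive mice, experienced PBS replicate 4 lay beyond all 4 naive PBS libraries in the direction of the LPS change in 36 members (85.7%), and replicate 3 in 30 (71.4%). Replicates 1 and 2 did so in 5 (11.9%) and 7 (16.7%), and lay beyond naive PBS in the other direction in 18 and 13. Over all 3293 genes called in naive mice the shares in the LPS direction were 77.6%, 64.1%, 16.5% and 19.6% for replicates 4, 3, 1 and 2, so the split is not particular to the carriers. Without replicates 3 and 4 the members called in experienced mice were 24 higher and 16 lower, and still 0 against naive PBS. Over all genes 974 rose and 1393 fell there, beside 686 and 1254 with all libraries. The interaction for Slc40a1, -2.42 with all libraries (unadjusted p = 0.0272), was 0.22 without them. The corresponding values were -3.14 and 0.25 for Slc25a21, and -3.50 and 0.92 for Slc26a1.

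Carriers named outside the Slc pattern showed what the symbol rule leaves out. Of 16 tested genes of this kind 2 rose and 2 fell in naive mice, beside 9.81% and 11.9% of all genes. In experienced mice 2 rose and 1 fell, beside 4.52% and 8.26%. Mfsd2b, which exports sphingosine-1-phosphate, had 33.9 to 79 CPM in naive PBS and 161 to 363 in naive LPS libraries and rose by 2.27 (adjusted p = 0.000706) and 1.27 (adjusted p = 0.0309). Spns2, another sphingosine-1-phosphate exporter, fell by 0.77 in naive mice (adjusted p = 0.0146), and Slco2b1 fell by 2.08 and 1.58 (adjusted p = 0.00191 and 0.0138). The red-cell ammonia channel Rhag rose by 3.76 in naive mice (adjusted p = 0.012).

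Promoters were read from RefSeq (GRCm38.p6), as 300 bases from 250 before to 50 after each start site, with an entry for 133 of the 175 members. The hexamer CACGTG, an E-box that is its own reverse complement, was present in 27 of the 133 members, 20.3%, beside 11.8% of the 10296 tested genes and 8.09% of the 27025 genes with an entry. It was in 5 of 19 members called higher in either LPS comparison (26.3%) and in 6 of 21 called lower (28.6%). The octamer TGATGNAA, a composite CEBP and ATF element searched on both strands, was in 4 of the 133 (3.01%, beside 2.72% of tested genes), and the GATA motif AGATAA on either strand in 16 (beside 8.07% of tested genes). These are matches of letters in a window and not measured sites. The stretches below belong to members that rose and hold CACGTG or, for Slc1a4, TGATGNAA on the other strand. They are printed 5′ to 3′ along the gene's strand with the match in capitals and its flanks in lower case.
Slc16a1, chr3:104638444-104638489, plus strand, 200 bases before the start: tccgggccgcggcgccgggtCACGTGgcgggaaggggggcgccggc
Slc20a1, chr2:129198578-129198623, plus strand, 175 bases before the start: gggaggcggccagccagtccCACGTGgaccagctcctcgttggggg
Slc20a1, chr2:129198731-129198776, plus strand, 22 bases before the start: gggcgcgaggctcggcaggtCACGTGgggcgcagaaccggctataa
Slc39a8, chr3:135825566-135825611, plus strand, 71 bases before the start: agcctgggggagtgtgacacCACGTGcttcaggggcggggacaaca
Slc41a3, chr6:90619013-90619058, plus strand, 213 bases before the start: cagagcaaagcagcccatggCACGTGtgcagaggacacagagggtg
Slc25a33, chr4:149774264-149774295, minus strand, 8 bases before the start: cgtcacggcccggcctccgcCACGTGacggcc
Slc1a4, chr11:20332710-20332737, minus strand, 4 bases before the start: cctccagcgtgcctcctgcgTTGCATCA
Slc20a1 holds the hexamer at both positions shown.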

How the data were processed

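RNA-seq of sorted HSPCs gave 1 table for each of 16 libraries. The labels list 2 technical replicates per biological replicate (32 entries) without saying how they were joined. They name a single-cell droplet kit for the libraries, yet each table holds 1 value per gene, so the data were treated as bulk. The submitters' processing notes name RSEM 1.3.1, Trim Galore 0.6.7, the genome GRCm38 and STAR 2.7.10a. The deposited tables hold RSEM expected counts and TPM, per the file headers. GENCODE M21 matched 45143 of 45706 identifiers.

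Expected counts were rounded. edgeR 4.0.16 (R 4.3.3) kept 15186 genes by its group filter, scaled them by TMM and ran the quasi-likelihood test on all 16 libraries with a mean for each group, with 12 residual degrees of freedom and no block. Calls are at a Benjamini-Hochberg adjusted p under 0.05 over all genes tested, and CPM use TMM-scaled totals. The same-number correlation between groups was over 0.1 in 4 of 24 pairs, so numbers were not taken as pairs. Those 4 were experienced PBS with experienced LPS at replicates 1, 2 and 4 (0.175, 0.222 and 0.321) and naive with experienced LPS at replicate 3 (0.299). Experienced PBS and LPS replicates 3 stood at -0.123. Alternatives used DESeq2 1.42.0 and limma 3.58.1. The test was checked on simulated counts.

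Substrate classes were assigned by family and textbook knowledge. Members and lists were chosen with earlier results of these data known. Genes were named by rule: the most abundant member of each class, up to 5 called members per class with the lowest adjusted p, the 6 largest called rises and falls of each comparison, the 3 genes on either side of the TPM level, and 30 well-known carriers listed by name where they are members. Other genes, among them Slc25a3, Slc16a10, Slc36a4, Slc25a36, Slc39a11, Slc48a1, Slc7a6, Slc38a5, Slc26a1 and Slc38a9, were chosen after their values were seen. Leaving out single libraries was run for the named members and for Slc38a5 and Slc26a1. Certain items are not reported here.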

Additional observations from a re-analysis of the deposited data

Results flagged for a closer look

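Over 64 named members, 27 of 256 groups of 4 libraries had 1 library far from the other 3, where chance alone flags about 1 in 20. Experienced LPS replicate 4, the shallowest library and the one with the most mitochondrial counts, was the outlying one in 11 of them. It was low for Slc1a5 (62.6 CPM against 209 to 220), Slc25a5 (317 against 678 to 710), Slc16a1 (106 against 184 to 191), Slc19a1 (46.6 against 84.9 to 92.3), Slc16a3 (2.47 against 8.86 to 9.6), Slc27a1 (9.76 against 16 to 17.3), Slc22a3 (148 against 196 to 205) and Slc38a2 (209 against 271 to 283). It was high for Slc14a1 (200 against 131 to 140), Slc25a53 (9.35 against 5.04 to 5.42) and Slc16a13 (15.5 against 12.4 to 12.9).

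Experienced PBS replicate 4 was high for Slc7a5 (164 CPM against 103 to 110), Slc41a3 (12 against 5.88 to 6.17) and Slc29a1 (126 against 69.8 to 74.3), and replicate 3 was low for Slc25a28 (24.8 against 34.5 to 35.5). Naive PBS replicate 4 was low for Slc16a6 (37.9 against 46.3 to 47.2), Slc43a3 (85.6 against 103 to 106) and Slc28a2 (39.4 against 58.8 to 59.5) and high for Slc16a12 (8.75 against 3.98 to 4.16) and Slc16a13 (25.2 against 17.9 to 19.1). Naive PBS replicate 3 stood apart for Slc27a1 (29.4 against 37.2 to 37.8) and Slc38a1 (300 against 268 to 274).

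Among naive LPS libraries replicate 2 was high for Slc27a6 (4.65 CPM against 1.08 to 1.49) and low for Slc22a17 (1.42 against 4.03 to 4.56) and Slc50a1 (26.3 against 33.7 to 35.1), replicate 1 was high for Slc7a8 (104 against 60.3 to 63.4) and replicate 3 for Slc1a4 (14.0 against 6.2 to 7.02). No member differed between the LPS responses of naive and experienced mice at an adjusted p under 0.05.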

How the results depend on the processing

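Of 37 named calls in naive mice 19 held in all 23 alternatives, as did 9 of 31 in experienced mice. The losses given gene by gene above are mostly those on leaving out 1 library. Many of those calls also ended with limma on log2(TPM + 1), and some without the filter on low counts or with the replicate block. In naive mice limma was the only setting that ended the calls of Slc7a8, Slc14a1, Slc16a6, Slc25a53, Slc28a2, Slc2a9 and Slc41a3. With limma on log2(TPM + 1) 5 members rose in naive mice, and 6 rose and 11 fell in experienced mice. Over all genes 374 rose in naive mice, and 178 rose and 954 fell in experienced mice. That setting put the median change of all genes at -0.09 in naive and -0.13 in experienced mice. Without the filter on low counts 10 members fell in experienced mice, and 920 of the 24784 genes then tested fell there. Without both high-mitochondrial libraries 28 rose in naive and 32 in experienced mice. Over all genes 2426 and 1559 rose without them, beside 1490 and 686 with all libraries. Leaving out 1 library gave 11 to 23 higher and 18 to 28 lower in naive mice and 5 to 29 higher and 6 to 21 lower in experienced mice. The counts over all genes were 768 to 2184 and 1233 to 2214 in naive mice. In experienced mice they were 302 to 1456 and 712 to 1701. The replicate block gave 16 higher and 23 lower in naive and 13 higher and 14 lower in experienced mice, within 1.5 times the counts without it. Over all genes it gave 1236 higher and 1684 lower in naive and 540 higher and 1052 lower in experienced mice. Among the libraries, 4 of 16 lay closest to their own number. DESeq2, upper-quartile factors and a level of 0.5 or 2 TPM kept all counts within 1.5 times. Directions turned for the 6 carriers plotted against the erythroid marker sum. In experienced mice after LPS, Slc38a5 went from -0.36 to 0.42 with limma, 0.19 with the replicate block, 1.70 without experienced PBS replicate 4, 1.03 without both high-mitochondrial libraries and 2.98 without experienced PBS replicates 3 and 4. Slc22a23 went from -0.08 to 0.42, 0.14, 0.82, 0.61 and 1.44 in the same order, and to 0.10 without experienced LPS replicate 2. Slc26a1 went from -0.69 to 1.35, 0.73 and 3.72 in the last 3 of these. Slc40a1 went from 0.04 to -0.31, -0.33 and -0.43 without experienced PBS replicate 1 or 2 or experienced LPS replicate 4. Slc25a21 went from 0.03 to -0.36 without experienced PBS replicate 1 or 2 and to -0.07 and -0.16 without experienced LPS replicates 3 and 4. Without experienced PBS replicates 3 and 4 the differences from naive PBS became -0.30 for Slc11a2, -1.07 for Slc40a1, -0.91 for Slc38a5, -1.36 for Slc25a21, -0.34 for Slc22a23 and -1.60 for Slc26a1, and the interactions 0.00, 0.22, 0.56 and 0.25 for the first 4 and 0.92 for Slc26a1. Over single libraries left out, these experienced LPS differences ranged from -0.43 to 0.88 for Slc40a1, -1.0 to 1.7 for Slc38a5, -0.36 to 1.19 for Slc25a21, -0.4 to 0.82 for Slc22a23 and -1.29 to 1.35 for Slc26a1. The cause was not tested. With 4 replicates of uneven depth, changes under 2-fold were often near the threshold.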
